A study of Mus musculus with 6 samples.

Results

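Chromosomes 1 to 19 of the mouse were divided from position 1 into windows of 1000000 bp (1 Mb), and the methylation level of each window was read from thin positions, those with fewer than 10 reads in a library. A window's level is the number of methylated calls over all calls at its thin positions, in percent, where a call is 1 read at 1 cytosine. Windows with 200 or more such calls in all 6 libraries were kept, which were 2398 of the 2413 windows with any thin position and of the 2672 windows of chromosomes 1 to 19, X and Y with any listed position. The rule used coverage and not methylation.

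In the mammalian genome most CpG dinucleotides are methylated on the cytosine, while CpG islands, the CpG-dense stretches at many gene starts, are mostly free of methylation. Male germ cells, which make up most of an adult testis, carry a highly methylated genome outside such islands. Reduced representation bisulfite sequencing (RRBS) cuts DNA at CCGG with the enzyme MspI and reads the short fragments, which are rich in CpG islands, after bisulfite has turned unmethylated cytosine into uracil. Calls that fall between those fragments are few at any position, and only sums over long windows give them a usable precision.

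The libraries came from the right testis of 3 hemicastrated and 3 sham-operated mice, all of the strain KM, an outbred stock. In the hemicastrated group the other testis had been taken out before puberty, the sham group had surgery without removal, and all were kept to body maturation, with no age given. Each mouse gave 1 library of whole tissue, so germ cells and somatic cells were measured together, and a change in their proportions cannot be told apart from a change within a cell type. At positions with 10 or more reads near the starts of 8 measured genes that are unmethylated in germ cells and methylated in most somatic cells, mean levels ran from 9.41% at Dazl to 27.2% at Sycp1. Ddx4 and Tdrd1, on the same list, had no such position.

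Thin positions made up 72.7% to 81.0% of the positions listed in a library and held 6.65% to 11.3% of its calls. On chromosomes 1 to 19 they held 6682277, 5345068 and 8492977 calls in the hemicastrated libraries and 5803536, 5099033 and 5496607 calls in the sham libraries. Over all windows and libraries a window had between 215 and 19234 calls in a library, with a median of 1953.5, and the Wilson 95% interval of its level had a median half-width of 2.08 points. These intervals cover counting error only and take every call as independent, which PCR copies and calls of the same read are not. The 5 windows just under the limit of calls had 148 to 199 calls in their thinnest library and mean levels of 25.3% to 80.2%, and the 5 just above it had 215 to 226 calls and levels of 55.9% to 75.1%.

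Promoters of named genes, most of them in windows at either end of the range, are printed as examples of sequence and coverage. Each sequence is the RefSeq reference of build GRCm38.p6, from 250 bases before to 50 bases after a gene's start, on the gene's strand, with every CG in capitals. Scgn (chr13:23991165-23991464, minus strand) and Gpx6 (chr13:21311953-21312252, plus strand) lie in the lowest and the second lowest window, and Plpp4 (chr7:129256844-129257143, plus strand) lies in a window among the 10 highest. Gjd2 (chr2:114013570-114013869, minus strand), H4c1 (chr13:23761200-23761499, minus strand) and Ube3a (chr7:59228500-59228799, plus strand) were chosen after their values were seen, as examples of promoters with thin calls and a level near 0%.
Scgn: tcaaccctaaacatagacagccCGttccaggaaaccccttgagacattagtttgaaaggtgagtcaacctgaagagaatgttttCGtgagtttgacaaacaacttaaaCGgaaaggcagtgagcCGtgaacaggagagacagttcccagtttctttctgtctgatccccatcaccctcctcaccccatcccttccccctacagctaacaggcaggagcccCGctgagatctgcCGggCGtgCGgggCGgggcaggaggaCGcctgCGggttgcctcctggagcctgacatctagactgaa
Gpx6: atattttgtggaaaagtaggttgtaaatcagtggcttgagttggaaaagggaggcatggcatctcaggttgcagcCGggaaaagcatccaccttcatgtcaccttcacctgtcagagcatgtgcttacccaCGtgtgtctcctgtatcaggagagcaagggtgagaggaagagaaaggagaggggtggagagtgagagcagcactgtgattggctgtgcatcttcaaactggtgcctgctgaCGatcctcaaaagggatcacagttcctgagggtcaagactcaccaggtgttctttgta
Plpp4: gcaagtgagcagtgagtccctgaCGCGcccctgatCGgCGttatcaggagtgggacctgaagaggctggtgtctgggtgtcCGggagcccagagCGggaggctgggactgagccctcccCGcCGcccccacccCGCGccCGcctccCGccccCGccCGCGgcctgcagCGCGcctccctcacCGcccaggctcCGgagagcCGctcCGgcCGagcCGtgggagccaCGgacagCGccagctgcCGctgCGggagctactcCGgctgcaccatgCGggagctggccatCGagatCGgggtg
Gjd2: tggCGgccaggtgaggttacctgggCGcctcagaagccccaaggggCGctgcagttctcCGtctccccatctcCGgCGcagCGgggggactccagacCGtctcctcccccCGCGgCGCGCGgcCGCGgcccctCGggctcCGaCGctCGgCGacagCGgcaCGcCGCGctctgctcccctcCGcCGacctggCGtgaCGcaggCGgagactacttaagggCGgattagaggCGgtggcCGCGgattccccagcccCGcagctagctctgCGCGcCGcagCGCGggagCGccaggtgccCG
H4c1: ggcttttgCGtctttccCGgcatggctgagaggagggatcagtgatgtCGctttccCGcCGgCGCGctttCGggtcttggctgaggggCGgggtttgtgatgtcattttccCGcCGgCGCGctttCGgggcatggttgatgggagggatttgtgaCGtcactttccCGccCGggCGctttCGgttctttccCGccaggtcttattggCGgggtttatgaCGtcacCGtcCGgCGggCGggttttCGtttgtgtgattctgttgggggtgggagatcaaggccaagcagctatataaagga
Ube3a: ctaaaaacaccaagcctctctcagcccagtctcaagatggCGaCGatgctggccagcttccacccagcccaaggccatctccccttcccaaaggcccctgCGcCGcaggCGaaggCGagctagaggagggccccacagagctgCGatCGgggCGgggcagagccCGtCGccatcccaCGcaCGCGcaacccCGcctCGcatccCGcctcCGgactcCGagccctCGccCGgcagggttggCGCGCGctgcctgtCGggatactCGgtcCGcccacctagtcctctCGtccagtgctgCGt

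The Scgn sequence holds 11 CG and 1 CCGG, and its 7077 calls over the 6 libraries, nearly all at well-covered positions, were methylated in 1.12% of cases. The Plpp4 sequence holds 31 CG and 4 CCGG and had 7127 calls with a level of 0.491%, so a window of very high thin level can contain an unmethylated promoter that deep fragments cover and that adds only 63 thin calls. The Gpx6 sequence, with 3 CG and 1 CCGG, received 3 calls. CCGG, which reads the same on both strands, occurs in 53.5% of 31396 RefSeq promoters of this length on chromosomes 1 to 19, and their median number of CG is 7.

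The thin level depended on how thin a position was and on how near it lay to deep coverage. At positions with exactly 1 read the level was 70.9%, 67.6% and 73.5% in the hemicastrated libraries and 69.3%, 70.3% and 68.8% in the sham libraries. At positions with 5 to 9 reads it was 42.1%, 40.3% and 45.8% in the hemicastrated and 41.6%, 41.0% and 40.4% in the sham libraries. The decline was seen in every library, and positions with 50 or more reads were lowest, at 26.2% to 27.7% in the hemicastrated and 26.6% to 30.7% in the sham libraries.

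Many thin positions were not away from the RRBS fragments. Of the thin calls, 46.7%, 55.9% and 41.0% in the hemicastrated libraries and 50.9%, 49.4% and 53.6% in the sham libraries lay within 1000 bp of a position that had 10 or more reads in at least 1 of the 6 libraries. These near calls had a level of 43.3%, 41.3% and 44.9% in the hemicastrated and 41.9%, 42.8% and 41.9% in the sham libraries. The remaining far calls, over 1000 bp away, had a level of 79.8%, 79.7% and 80.7% in the hemicastrated and 79.0%, 80.5% and 79.8% in the sham libraries. With distance the level first went down, to a minimum of 31.5%, 28.3% and 33.4% in the hemicastrated and 28.4%, 31.2% and 30.2% in the sham libraries between 2 and 50 bp, then went up to about the far level within 2000 bp and stayed there. In hemicastrated replicate 1 it was 40.0% at positions covered in another library, 31.5% between 2 and 50 bp, 45.7% between 200 and 500 bp, 65.1% between 500 and 1000 bp, 77.9% between 1000 and 2000 bp, 80.5% between 2000 and 5000 bp and 79.3% beyond 20000 bp. The limit of 1000 bp was chosen after these levels were seen, and window levels are given below for all thin positions and for the far ones. Where a listed position fell in a RefSeq promoter, it was at a CG of the reference in at least 99% of cases in each class and library.

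**Figure D1:**
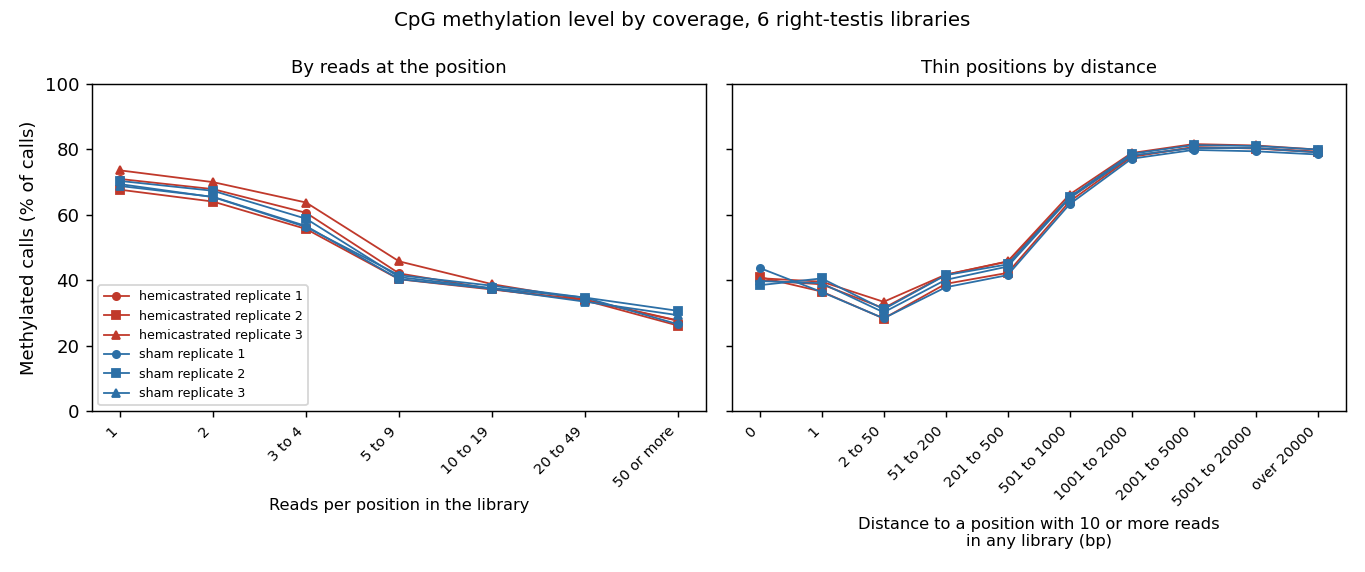
Methylated calls as percent of calls on the vertical axes, by the number of reads at a position (left) and, for thin positions, by distance in bp to the nearest position with 10 or more reads in any library (right), with 1 line per library, hemicastrated in red and sham in blue. All 6 lines lie near 70% at 1 read and fall to under 31% at 50 or more reads, and on the right they start near 40% next to deep coverage, dip to 28.3% to 33.4% between 2 and 50 bp and reach about 80% beyond 2000 bp.

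Over the 2398 windows the thin level spread widely, while the far level was narrow and high. The thin level, as the mean over the 6 libraries, ran from 26.5% to 87.3% with a median of 65.0% and an interquartile range of 57.7% to 71.3%. The far level, in the 2370 windows with 200 or more far calls in every library, ran from 37.5% to 89.7% with a median of 79.6% and an interquartile range of 75.8% to 82.9%. Between 70% and 85% lay 82.0% of the windows by far level, against 29.1% by thin level. By thin level 193 windows were under 50%, and by far level 3 were.

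In the same windows, thin positions were more methylated than well-covered ones. The thin level averaged 64.2% ± 2.16 and the well-covered level 39.7% ± 1.34 (SD, n = 6 libraries) over 2397 windows with enough calls of both kinds. The difference was 24.5 points, between 22.6 and 27.8 in all 6 libraries, with an exact two-sided sign-flip permutation p of 0.031, the smallest that 6 libraries allow, also after Benjamini-Hochberg adjustment over 3 within-library contrasts. For far positions the difference was 39.4 points.

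**Figure D2:**
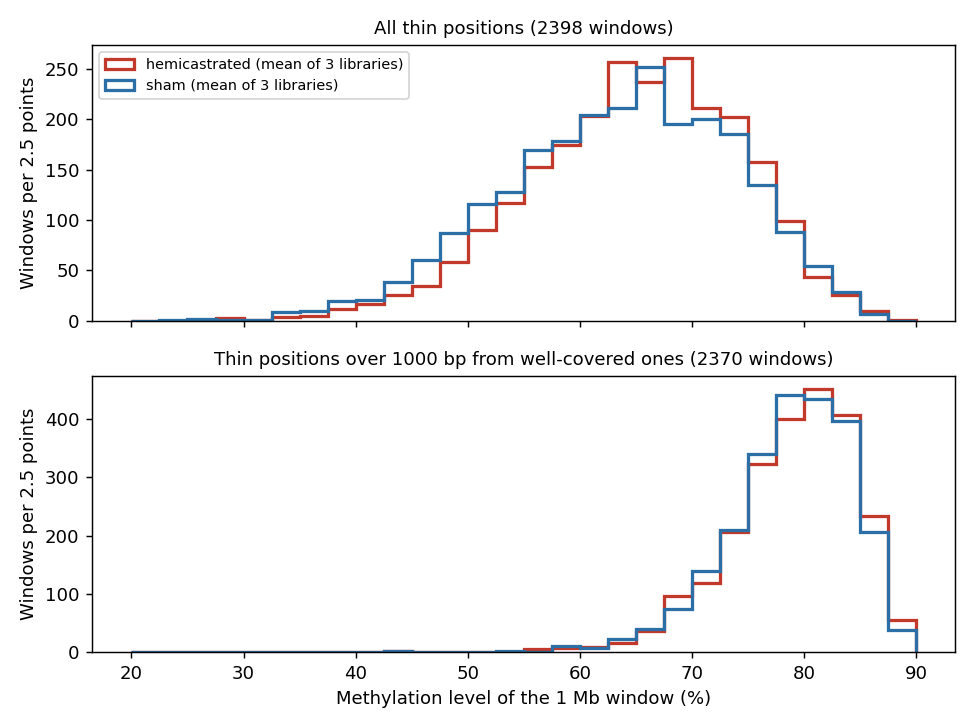
Number of 1 Mb windows (vertical axes) by methylation level in percent (horizontal axis, bins of 2.5 points), from all thin positions (top, 2398 windows) and from thin positions over 1000 bp from well-covered ones (bottom, 2370 windows), for the mean of the hemicastrated libraries in red and of the sham libraries in blue. The upper distribution is broad around a median of 65.0% and the lower one is narrow around 79.6% with a short tail of low windows.

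Windows kept much of their order between mice, while the spread between mice was larger than binomial counting of independent calls gives. Across the 2398 windows Pearson's r of the thin level was 0.847 to 0.895 for pairs of libraries within a group and 0.860 to 0.902 for pairs from different groups, and the ranges overlapped. For the far level r was 0.800 to 0.864 within groups and 0.797 to 0.851 between groups. These are descriptions across windows, which share library depth, coverage and base composition. The SD of a window's level over the 6 mice had a median of 3.70 points for thin and 2.12 for far, against a median of 1.08 and 1.20 points from binomial counting alone. The variance between mice was a median of 12.2 times this counting variance for thin windows and 3.02 times for far windows. After each library was centred on its median window, the ratios were 8.13 and 2.84. The counting variance takes every call as independent, which calls of the same read and PCR copies are not. The ratios are thus not a measure of spread between mice alone. The highest and lowest mouse were more than 20 points apart in 71 windows by thin level and in 7 by far level.

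Lists of the lowest windows were shared between libraries more than lists of the highest. When the 24 lowest windows were taken in each library, 9 were in the list of all 6 libraries and 50 in at least 1, and of the 24 highest 4 were in all and 59 in at least 1. By far level 6 of the lowest and 0 of the highest 24 were in the list of every library. By far level 1110 windows were above 80%, by thin level 75. The levels themselves were not closer between mice at the low end. By thin level the SD over the 6 libraries was 1.51 to 5.24 points in the 10 lowest windows and 0.58 to 3.60 in the 10 highest.

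The lowest window, chr13:23000001-24000000, had thin levels of 33.0%, 24.5% and 27.4% in the hemicastrated and 24.7%, 27.2% and 22.5% in the sham libraries, and the groups overlapped. By gene symbol it holds 32 members of the histone family, which code for core and linker histones. It also holds 23 members of vomeronasal receptor family 1 (Vmn1r), a family that serves pheromone detection. Counts of family members here and below include pseudogenes. The far level of this window was 44.0%, 38.0% and 37.8% in the hemicastrated and 33.5%, 37.7% and 34.0% in the sham libraries, the lowest of all windows. The second lowest, chr13:21000001-22000000, lies close by and holds a further 18 histone genes and 13 olfactory receptor genes. Its thin level was 31.9%, 21.9% and 33.7% in the hemicastrated and 25.5%, 27.7% and 26.0% in the sham libraries, and its far level averaged 43.7% ± 4.32 (SD, n = 6).

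The window ranked next, chr18:37000001-38000000, contains the clustered protocadherin genes, 14 Pcdha, 22 Pcdhb and 22 Pcdhg, adhesion molecules from which each neuron expresses its own selection through alternative promoters. Its thin level was 31.3%, 27.7% and 27.9% in the hemicastrated and 26.9%, 28.7% and 28.3% in the sham libraries, the closest agreement among these 10 windows. Its far level of 44.4% ± 3.16 was also among the lowest. In these first 3 windows the level was thus low over all thin calls and over the far ones alone.

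At the Hox clusters the far level stood closer to that of other windows. The window chr2:74000001-75000000 with 10 Hoxd genes, which pattern the limbs and the body axis, had a thin level of 32.0% ± 4.46 and a far level of 68.2% ± 1.33 (SD, n = 6). The window chr6:52000001-53000000 with 12 Hoxa genes had a thin level of 35.0% ± 4.0 and a far level of 75.5% ± 4.39. At chr2:147000001-148000000, with the homeobox gene Nkx2-2 and the exonuclease gene Xrn2, the thin level was 35.1% ± 3.60 and the far level 75.9% ± 2.01. The well-covered level in these 3 windows was 7.52%, 5.02% and 4.34%. The window with 12 Hoxb genes had a thin level of 39.9% and a far level of 68.7% ± 1.90, and that with 6 Hoxc genes 36.0% and 65.1% ± 1.91 (SD, n = 6). The far levels of the Hoxb, Hoxc and Hoxd windows were thus still low, under the 5% quantile of all windows, 68.9%, and that of the Hoxa window was above it.

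Of the other low windows, chr13:65000001-66000000 (Vmn2r pseudogenes, 32.3% thin and 58.9% far) and chr15:103000001-104000000 (the end of the Hoxc cluster with Cbx5 and Gtsf1, 35.3% thin and 54.9% far) were low by either measure. Chr9:124000001-125000000, with the chemokine receptor genes Ccr2 and Ccr3, had a thin level of 30.0% ± 5.08 and too few far calls. Chr14:4000001-5000000, where all 27 annotated genes have provisional symbols, had 33.7% ± 5.24 and also too few far calls. Of the 10 windows lowest by thin level, 5 were among the 24 lowest by far level.

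The 10 highest windows lay between 84.9% and 87.3% and held few genes: they overlapped 4 to 13 annotated genes each, against 11 to 129 in the 10 lowest. They include Hs3st4, a heparan sulfate sulfotransferase gene, at chr7:124000001-125000000 (87.2%, 87.9% and 89.2% in the hemicastrated and 85.4%, 89.2% and 84.7% in the sham libraries), Khdrbs3 on chromosome 15, the transcription factor genes Foxp1 and Mitf on chromosome 6, Xylt1 on chromosome 7, Macrod2 on chromosome 2, Wwox on chromosome 8 and the potassium channel gene Kcnma1 on chromosome 14. Their SD over the 6 libraries was 0.58 to 3.60 points. Far levels in them were 86.1% to 89.5%, so thin and far levels agreed closely at this end. The windows highest by far level were mostly others. The Xylt1 window was in both lists, but 4 of the 5 highest by far level overlapped 25 to 37 annotated genes. The highest, chr16:11000001-12000000 with Snx29 and Txndc11, had a far level of 89.7% ± 0.69 and a thin level of 57.9%.

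Inside 10 of the 15 windows lowest by far level, low stretches lay beside at least 1 stretch of 100000 bp at or above the median far level of all windows, 79.6%. This covers stretches with 50 or more far calls, with calls and levels pooled over the 6 libraries. In the other 5, which were chr13:66000001-67000000, chr13:67000001-68000000, chr13:120000001-121000000, chr6:130000001-131000000 and chr7:60000001-61000000, no stretch reached that median, and the highest in each lay between 67.8% and 76.0%. Some stretches rest on few calls: the one that reached it in chr6:133000001-134000000, at 85.7%, had 63 pooled calls and 2 in its thinnest library. Levels with an SD below are means over the 6 libraries. In chr13:23000001-24000000 the 100000 bp from 23500001 on, with tRNA and histone genes, had a far level of 12.4% ± 3.23, and the 100000 bp from 23800001 on, with the solute carrier genes Slc17a1 to Slc17a4, had 80.6% ± 6.40 (SD, n = 6). In the protocadherin window the stretch from 37700001 on, with Pcdhg genes, had 20.1% ± 10.3, while the stretch from 37900001 on, with Diaph1 and the histone deacetylase gene Hdac3, had 82.2% ± 2.42. In chr2:114000001-115000000 the first 100000 bp, with the gap junction gene Gjd2 and the cardiac actin gene Actc1, had 20.5% ± 4.15 and the next 87.6% ± 2.71. The 100000 bp from 103000001 on of chromosome 15, with Hoxc4, Hoxc5 and Hoxc6, had 25.2% ± 4.13, and the 100000 bp with Zic1 and Zic4, zinc finger genes of the developing cerebellum, had 29.3% ± 6.02.

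Promoters without deep coverage carried such low calls. Of 171 RefSeq promoters with a named gene in the 15 windows lowest by far level, 40 had 10 or more far calls over the 6 libraries, 36 of these had a level under 10%, and their median number of CG was 10. Over all 19140 such promoters of chromosomes 1 to 19, 1908 (9.97%) had 10 or more far calls and 1102 of these (57.8%) had a level under 10%, against 23.4% and 90% in the low windows, so low promoters were common elsewhere too. The windows were chosen for a low far level, and the difference in shares is a description. The Gjd2 promoter, printed above, holds 41 CG and 1 CCGG and received 1617 far calls, of which 10 were methylated, with 179, 243 and 325 calls in the hemicastrated and 311, 227 and 332 in the sham libraries. The H4c1 promoter, a histone H4 gene with 27 CG and 5 CCGG, had 66 far calls and none methylated. The far calls in 72 promoters of the 5 windows highest by far level were fewer: 4 promoters had 10 or more, all above 70%, with a median of 5.5 CG. So the far positions also sample unmethylated promoters, where the sequenced fragments did not reach 10 reads. Gjd2 and H4c1 are CpG-dense examples of these, chosen after their values were seen. Over all 1908 promoters with 10 or more far calls the median number of CG was also 10. Of the 40 in the low windows, 21 had no CCGG.

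The same held for tRNA genes, a class looked at after the values were seen. Within 250 bp of the 385 annotated tRNA genes of chromosomes 1 to 19, the far level was 16.0%, 14.5% and 11.3% in the hemicastrated and 11.8%, 13.6% and 15.1% in the sham libraries, on 590 to 1072 calls. Elsewhere the far level was 79.8%, 79.8% and 80.7% in the hemicastrated and 79.0%, 80.5% and 79.8% in the sham libraries. The 6 windows with 10 or more tRNA genes had a mean far level of 62.8% ± 1.5, the 7 windows with 5 to 9 had 72.8% ± 1.52, and the 2258 windows with none had 78.9% ± 0.58 (SD, n = 6). Of the 6 windows, the 2 histone windows of chromosome 13 described above averaged 40.6% ± 3.63 and the other 4 averaged 73.9% ± 0.83, between 66.9% and 81.8%. All 4 histone windows hold 7 or more tRNA genes, so the classes overlap. The relation was not uniform: chr6:48000001-49000000, with 47 tRNA genes, had a far level of 81.8% ± 1.38.

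Windows with 5 or more genes of 1 family were set beside the median far level of all windows, 79.6%. The 4 histone windows had a mean far level of 55.7% ± 2.01, all 4 under that median, and the 3 windows with major histocompatibility genes (H2-), which present antigens, had 67.9% ± 2.07, all 3 under it. Of 16 Vmn2r windows 13 were under it (mean 70.7% ± 1.34), of 15 Vmn1r windows 10 (72.8% ± 0.64), of 21 windows with zinc finger (Zfp) genes 16 (73.2% ± 1.21), and of 54 olfactory receptor windows 37 (76.4% ± 0.97). The 2 windows with killer cell lectin-like receptor (Klr) genes had 64.1% ± 2.43. In the Klra window, chr6:130000001-131000000, all 10 stretches of 100000 bp lay between 48.5% and 67.8%. These levels were pooled over the 6 libraries, with as few as 9 far calls in a library. The part of promoters in them was not tested. Of 4 Serpin windows 2 were under the median (mean 79.7% ± 1.53), and of 2 windows with major urinary protein (Mup) genes none was (82.2% ± 2.0). Besides these, only the Adam and Defa families, with 1 window each, had a mean above the median. All other families had a mean under it, such as Igk (4 of 4 windows under it, mean 75.4%), Igh (3 of 3, 69.9%), Krt (3 of 3, 76.5%) and Cyp (6 of 7, 77.1%). The mean far level of all windows, 78.9%, was itself under that median. Of these other families only Prl, with 1 window at 79.1%, lay above the mean of all windows. A mean under the median was thus not particular to the families named first. A window may count for several families, as chr13:23000001-24000000 does for histones and Vmn1r.

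**Figure D3:**
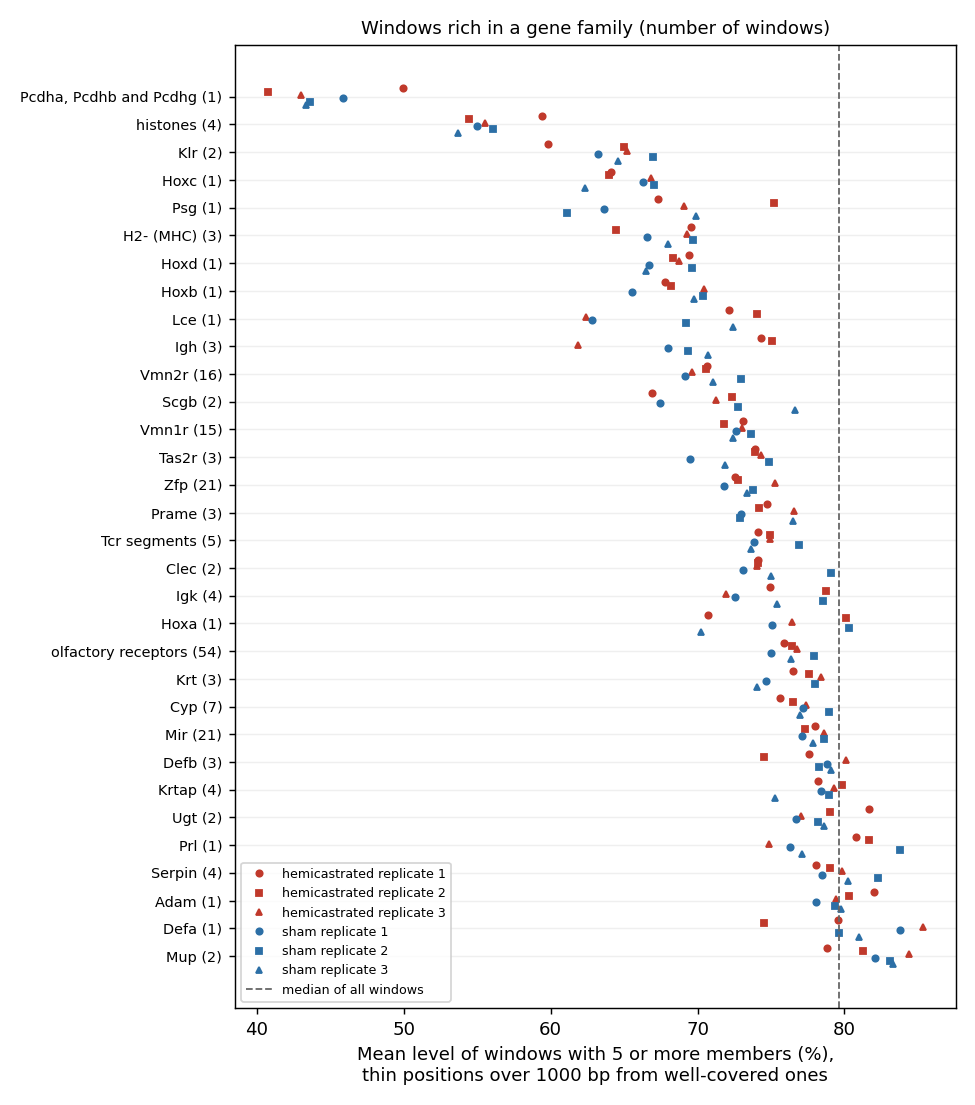
Mean far level in percent (horizontal axis) of windows with 5 or more genes of a family, with the number of windows in brackets, for each of the 6 libraries (hemicastrated red, sham blue), ordered by level, and the median of all windows as a dashed line. Protocadherin and histone windows are lowest in every library, and Mup windows sit at the other end.

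Neighbouring windows were more alike by far level than by thin level. Across windows the far level correlated with that of the next window with Pearson's r of 0.401, with that 2 Mb further on with 0.306, and with that 10 Mb further on with 0.041. For the thin level these were 0.201, 0.096 and 0.029. Low windows adjoin each other on chromosome 13 from 65000001 to 68000000, an example picked after its values were seen, where 3 windows with Vmn2r pseudogenes and zinc finger genes had far levels of 58.9% ± 2.84, 55.9% ± 3.61 and 56.4% ± 3.41.

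Across windows the thin level tracked how many of its calls were near ones. It correlated with the near share of calls with r of -0.666, with the number of gene starts with -0.462, with the level of the near calls with 0.856 and with the far level with 0.314, while the far level had an r of 0.087 with the near share and -0.059 with gene starts. Thin calls consist of the near and far calls, so the thin level's r with near share, near level and far level follow in part from that make-up. The r with the near share covers 2398 windows, that with the near level 1923 and that with the far level 2370. The 613 windows with 8 or fewer gene starts (the lower coordinate of a RefSeq gene) averaged 70.7% ± 1.16, and the 627 windows with 26 or more averaged 58.2% ± 2.55 (SD, n = 6). This difference of 12.5 points was positive in 6 of 6 libraries (exact sign-flip permutation p = 0.031, adjusted 0.031). By far level the sign turned: gene-poor windows had 77.4% ± 0.61 and gene-rich windows 78.6% ± 0.64, a difference of -1.27 points, negative in 6 of 6 libraries. In gene-rich windows 53.9% of the thin calls were near ones, against 31.7% in gene-poor windows.

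Chromosome means differed by a few points, in an order that the 6 libraries shared in large part. By thin level chromosome 11 was lowest, with 62.6%, 58.7% and 65.6% in the hemicastrated and 60.2%, 61.8% and 59.3% in the sham libraries, and it ranked last in all 6. Chromosome 6 was highest with 66.9%, 64.7% and 69.2% in the hemicastrated and 64.4%, 67.1% and 65.0% in the sham libraries. Its mean of 66.2% was close to those of chromosomes 15, 18 and 16 (65.96%, 65.94% and 65.86%). Its rank ran from 15 to 19 over the 6 libraries, where 19 is the highest.

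By far level the order was different. Chromosome 13 was lowest at 76.9% ± 0.81, and it held 6 of the 15 windows lowest by far level. Chromosome 19, among the 3 lowest by thin level at 62.3% ± 2.51, was highest by far level at 80.3% ± 0.43, close to chromosomes 18 (80.2%) and 11 (80.04%). Over the 6 libraries the far rank ran from 17 to 19 for chromosomes 19 and 18 and from 16 to 19 for chromosome 11. The lowest and highest chromosome were 4.85 points apart by thin and 3.40 points by far level. Chromosome 11, with 48.0% near calls per window, had the largest near share of the 19.

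**Figure D4:**
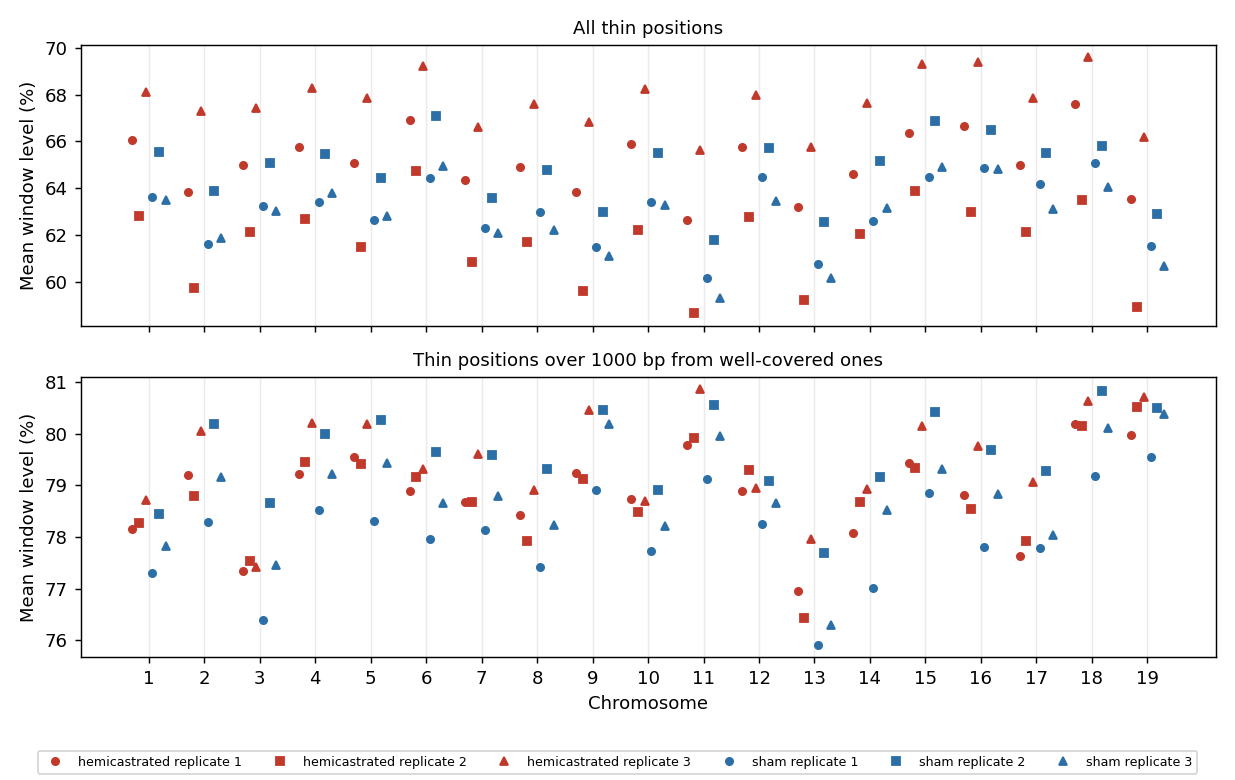
Mean window level in percent (vertical axes, not starting at 0) for each chromosome (horizontal axis) and library, hemicastrated left and red, sham right and blue, from all thin positions (top) and from thin positions over 1000 bp from well-covered ones (bottom). The libraries are shifted against each other by about the same amount on every chromosome in the upper panel, with hemicastrated replicate 3 highest and hemicastrated replicate 2 low, and lie closer together in the lower one.

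The X chromosome, present in 1 copy in males and silenced during meiosis in spermatocytes, was less methylated than the autosomes by the same window rule. The autosomal windows averaged 64.2% ± 2.15 and the 155 X windows 59.4% ± 1.16 (SD, n = 6), a difference of 4.84 points that was positive in 6 of 6 libraries (exact sign-flip permutation p = 0.031, adjusted 0.031). By far level the difference was 5.28 points, with 78.9% ± 0.58 on the autosomes and 73.6% ± 0.67 over 97 X windows. The difference was 1.02 points (exact sign-flip permutation p = 0.25) with a limit of 20 reads, 2.05 points (p = 0.062) at near positions and 10.8 points with a limit of 500 calls, so its size and its call depended on which positions and windows were counted. Among X windows the thin level was 59.7% ± 1.59 in hemicastrated and 59.0% ± 0.71 in sham mice (SD, n = 3 each). The 9 Y windows averaged 63.5% ± 2.72 in hemicastrated and 65.2% ± 2.88 in sham mice.

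Whether removal of the left testis went with another level of the remaining one was asked first of library means. The mean thin level over windows was 65.1%, 61.7% and 67.7% in the hemicastrated libraries and 63.0%, 64.8% and 62.8% in the sham libraries, and the groups overlapped. The means were 64.9% ± 3.0 in hemicastrated and 63.5% ± 1.12 in sham mice (SD, n = 3 each), a difference of 1.33 points (SE 1.85, exact two-sided permutation p = 0.6, where 3 against 3 cannot go below 0.1). Without hemicastrated replicate 3 the difference was -0.104, and without hemicastrated replicate 2 it was 2.89. These p-values measure the spread between these 6 mice.

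The libraries differed in the make-up of their thin calls in the reverse order of their levels. Hemicastrated replicate 3 had the smallest near share, 41.0%, and the highest mean, and hemicastrated replicate 2 had the largest near share, 55.9%, and the lowest mean, and the other 4 libraries fell in between in strictly reversed order. By far level the library means were 78.7%, 78.8% and 79.4% in hemicastrated and 77.9%, 79.6% and 78.7% in sham mice. Their range was 1.61 points, against 5.99 for thin levels, and the group difference was 0.237 points (SE 0.518, exact permutation p = 0.7).

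**Figure D5:**
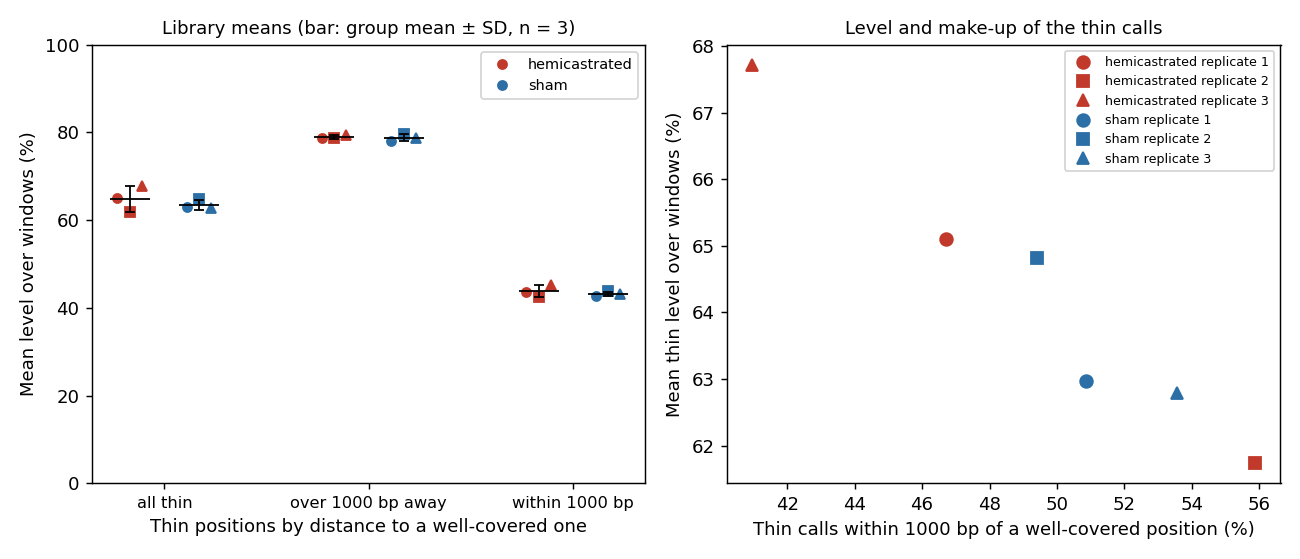
Left, mean level over windows in percent for each library, hemicastrated (red) left of sham (blue), from all thin positions and from those over 1000 bp and within 1000 bp of a well-covered one, with bars for the group mean ± SD (n = 3). Right, each library's mean thin level against the percent of its thin calls within 1000 bp of a well-covered position, with axes that do not start at 0: the library with 41.0% near calls has the level 67.7% and the one with 55.9% has 61.7%.

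On chromosomes, the thin mean was higher in hemicastrated mice on 19 of 19, by 0.73 to 1.93 points, and on none were the groups free of overlap. By far level it was higher on 16 of 19, with differences of -0.24 to 0.52 points and again an overlap on every chromosome. The chromosomes come from the same 6 libraries and share the shifts of whole libraries, so these counts are not separate observations.

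Of the 2398 windows, 1 passed an adjusted p of 0.05 in edgeR's quasi-likelihood test on methylated and unmethylated counts, which is 0.0417% of those tested. At an unadjusted p under 0.05 there were 60 windows (2.5%), and limma called 1. By far level edgeR called 0 of 2370 windows (0%), with 109 (4.6%) at an unadjusted p under 0.05, and limma also 0. Groups did not overlap, with hemicastrated higher, in 167 windows (6.96%) and, with hemicastrated lower, in 26 (1.08%), while by far level these were 142 (5.99%) and 61 (2.57%). The thin level was higher in hemicastrated mice in 69.6% of windows and the far level in 56.4%. Data were also simulated with the same depth, but with 1 median spread for all windows and no shift of whole libraries. There the test found 0 of 200 windows changed by 5 points, 113 changed by 10 and 200 changed by 20. It also called 1, 4 and 14 unchanged windows in these 3 settings. In that setting differences of 5 points were thus not detected.

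The called window was chr7:59000001-60000000, which holds the ubiquitin ligase gene Ube3a and part of the imprinted noncoding transcripts Snhg14 and Ipw. Its thin level was 69.1%, 72.3% and 69.1% in the hemicastrated and 52.5%, 53.7% and 48.1% in the sham libraries, without overlap, a difference of 18.7 points (edgeR adjusted p = 0.0423). The far level was 80.3%, 86.0% and 80.6% in the hemicastrated and 79.9%, 77.3% and 83.7% in the sham libraries, an overlapping difference of 2.02 points. The difference was 4.29 points (adjusted p = 0.997) at positions with fewer than 5 reads and 7.32 points (adjusted p = 0.766) at positions thin in all 6 libraries. The call was lost when any library other than hemicastrated replicate 2 was left out, with adjusted p-values of 0.0717 to 0.467, while the difference stayed between 17.1 and 19.9 points in all 6 such fits.

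The difference in that window went with the number of calls in 1 stretch at the start of Ube3a, chr7:59228001-59230000, which contains the printed Ube3a promoter with its 29 CG and 2 CCGG. The stretch supplied 18.4%, 14.5% and 10.9% of the window's thin calls in the hemicastrated and 31.9%, 31.5% and 40.1% in the sham libraries. Its own thin level was 18.8%, 0% and 0% in the hemicastrated and 1.16%, 0.388% and 0.5% in the sham libraries. Without it the window's level was 80.4%, 84.6% and 77.6% in the hemicastrated and 76.6%, 78.3% and 79.9% in the sham libraries, which overlapped.

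Another 9 windows had the smallest p in their direction, all with an adjusted p of 0.9996 in edgeR. Higher in hemicastrated mice were the windows of Magi2, a synaptic scaffold (chr5:20000001-21000000, 72.0%, 69.8% and 74.3% in hemicastrated and 65.7%, 60.1% and 54.2% in sham), Gnaq, a G protein subunit (chr19:16000001-17000000, difference 10.6 points), the sodium channel genes Scn1a, Scn7a and Scn9a (chr2:66000001-67000000, 9.97 points) and Ptpn4 (chr1:119000001-120000000, 9.24 points). By far level these 4 differences were 0.88, 5.39, 3.37 and 1.25 points. Lower were the windows of the glutamate receptor genes Grik2 (chr10:49000001-50000000, -16.3 points) and Grm7 (chr6:110000001-111000000, -10.5 points), of Lrfn5 (chr12:61000001-62000000, -10.2 points), of chr2:100000001-101000000 (-7.34 points) and of BC147527 (chr13:120000001-121000000, -9.19 points). By far level the Grik2 window differed by 1.28 points in the other direction and the BC147527 window by -11.4 points.

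Across all windows the group difference in level and the group difference in near share had an r of -0.464, and the deviations of single libraries from a window's mean an r of -0.631. Near calls are part of the thin calls, so these r follow in part from the make-up of the level. The near share averaged 40.9% ± 7.03 in hemicastrated and 44.1% ± 1.98 in sham libraries (SD, n = 3 each). Its part in the differences of other windows was not tested.

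The 5 windows with the largest excess of variance between mice over counting error were chosen by thin level, and far SDs were smaller in general, with the medians given above, so their far levels are given as a description. That of Dner (chr1:84000001-85000000) had thin levels of 56.5%, 41.7% and 65.8% in the hemicastrated and 59.4%, 65.4% and 42.4% in the sham libraries, and the groups overlapped. Its far levels were 82.8%, 82.4% and 83.6% in the hemicastrated and 82.2%, 80.6% and 82.1% in the sham libraries. The SD over the 6 libraries was smaller by far level for the windows of Dner (10.8 points thin and 0.99 far), Rnf150 (11.8 and 2.0) and Grik2 (11.6 and 4.52), and, to a lesser degree, for that of Slitrk3 and Bche (12.2 and 5.93).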

How the data were processed

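Per the labels' protocols, DNA of the right testis was digested with MspI, short fragments were selected, treated with bisulfite (Zymo EZ DNA Methylation-Gold) and sequenced in paired-end mode on an Illumina GAII. The submitters' processing notes name Bismark, TopHat2 2.0.11 and the build GRCm38 without roles. How duplicate reads and trimming were handled was not stated in those notes.

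For each library the authors deposited raw methylated and unmethylated read counts and the level in percent for each cytosine position, without strand or context. Libraries held 64504011 to 78630942 calls over 4188334 to 6473931 positions. Mitochondrial calls were methylated in 0.478% to 0.617% of cases.

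From the counts, calls at positions with fewer than 10 reads were summed per 1000000 bp window. Windows were tested with edgeR 4.0.16 (modelMatrixMeth, quasi-likelihood F test) and limma 3.58.1 in R 4.3.3, adjusted by Benjamini-Hochberg over all windows, after a test on simulated data. Library values were compared by exact permutation tests in Python 3.11.15 with scipy 1.17.1. Genes, promoters and sequences came from RefSeq tables of GRCm38.p6. Named windows were the 10 lowest and 10 highest by mean thin level, the 5 with the smallest p in each direction and the 5 with the largest excess of variance between mice over counting. Genes named were those with the longest span in the window and families with 5 or more members. The same ranks by far level, the stretches of 100000 bp, the tRNA genes and the promoters with far calls were added after the values were seen. The members and lists were chosen with earlier results of these data known. Some windows that these rules pick are not reported here.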

Additional observations from a re-analysis of the deposited data

How the results depend on the processing

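The group difference in mean thin level kept its sign and its p above 0.05 with limits of 5 or 20 reads, with exactly 1 read, a limit of 500 calls, a grid shifted by 500000 bp and near or far positions alone, and it reversed to -0.104 in 1 leave-one-out fit, whose range was -0.104 to 2.89. The number of called windows was 0 with limits of 5 or 20 reads, with exactly 1 read, with positions thin in all 6 libraries, with far positions, with near positions, on the shifted grid and with library-centred limma. Replicate numbers did not pair mice across groups (deviations of same-numbered libraries had r of 0.056, -0.081 and -0.180, and 1 of 3 hemicastrated libraries correlated best with its own number), and a replicate block gave 2 called windows, left the mean difference at 1.33 (exact p 0.75) and added the Grik2 window. Leave-one-out fits gave 0 to 3 calls by thin level. By far level such fits called 2 windows without hemicastrated replicate 2, 1 without sham replicate 2 and 0 when any other library was left out. The difference of the Grik2 window reversed to 1.28 at far positions. The difference between autosomes and X fell to 1.02 (adjusted p 0.25) with a limit of 20 reads and was 2.05 (adjusted p 0.0625) at near positions, and that between gene-poor and gene-rich windows reversed to -1.27 at far positions. With 5 libraries no sign-flip test can go below 0.0625, so leaving out a library ended those calls by construction, with ranges of 23.8 to 24.9 points for thin minus well-covered, 4.56 to 5.14 for autosomes minus X and 12.2 to 13.0 for gene-poor minus gene-rich. Other causes were not tested. In single windows counting alone gave a median SD of 1.08 points, and the variance between mice was a median of 12.2 times the counting variance. By far level it was 3.02 times. Both ratios take calls as independent, which those of the same read are not. Each mouse gave 1 library, so spread between mice cannot be told apart from differences in library make-up. Thin positions mix calls near and far from deep coverage in proportions that differ between libraries.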
